A study of Mus musculus and Homo sapiens with 20 samples.

Results

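Far intergenic regions of mouse hepatocyte chromatin are stretches of accessible DNA that lie more than 50 kb outside the body of every protein-coding gene. The assay was ATAC-seq, which uses a transposase to cut and tag open DNA. Merging all peaks of the 12 hepatocyte libraries that shared 1 bp or more gave 642948 regions, and 101575 of these held a peak in all 12 libraries. Of those 101575, the 10141 regions (9.98%) whose strongest peak was centred more than 50 kb from any protein-coding gene on mm10 are the members described here.

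The study asks how vitamin B2 (riboflavin) supply and AhR, a ligand-activated transcription factor, act on liver metabolism. The hepatocyte libraries, labelled 4 weeks, fell into 4 groups of 3: B2_minus with Ad_Cont, control with Ad_Cont, B2_minus with Ad_Cre and control with Ad_Cre. B2_minus stands for vitamin B2 deficiency per the labels, and hepatocytes of all 4 groups, controls included, carried a floxed Ahr gene. Cre is a recombinase that deletes DNA between loxP sites; the promoter that drives it, the share of cells it reached and the deleted part of Ahr are not known here. Nothing says whether the 3 replicates came from separate animals or cultures, so the p-values reflect the spread among these libraries alone, which may be technical.

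Accessible DNA far from genes often holds enhancers, short elements bound by transcription factors that can act on a promoter over long distances. Large gene-free intervals commonly flank genes of development and growth control, and some carry long noncoding RNA (lncRNA) or microRNA genes. A region is named below by its nearest protein-coding gene, which need not be the gene it acts on.

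Of the 10141 members, 173 were centred in a window from 250 bases before to 50 bases after the start of a lncRNA in RefSeq, and 13 of the 173 (7.51%, against 5.78% of all regions) passed the test of B2_minus against control described below. The start windows of the 3 that fell and the 2 that rose with the smallest adjusted p are shown, because they are the members whose sequence the reference holds. Capitals mark matches to TGANTCA, the core motif of AP-1, a transcription factor family induced by growth and stress signals. Each window is RefSeq sequence of GRCm38.p6, the assembly of mm10, written 5′ to 3′ on the strand of the lncRNA.
Morrbid (chr2:128429302-128429601, minus strand): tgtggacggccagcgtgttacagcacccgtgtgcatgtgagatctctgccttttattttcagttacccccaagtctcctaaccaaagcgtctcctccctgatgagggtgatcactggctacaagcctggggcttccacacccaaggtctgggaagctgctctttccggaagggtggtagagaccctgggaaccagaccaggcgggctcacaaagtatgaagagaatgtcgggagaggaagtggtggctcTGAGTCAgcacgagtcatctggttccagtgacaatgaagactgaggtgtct
Gm13816 (chr2:92751232-92751531, plus strand): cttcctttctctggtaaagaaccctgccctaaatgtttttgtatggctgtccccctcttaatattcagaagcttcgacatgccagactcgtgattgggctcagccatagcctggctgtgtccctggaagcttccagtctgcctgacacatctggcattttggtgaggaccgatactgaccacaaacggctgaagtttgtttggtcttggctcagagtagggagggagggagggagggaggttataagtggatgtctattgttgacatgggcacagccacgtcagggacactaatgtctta
Gm39368 (chr9:69887404-69887703, plus strand): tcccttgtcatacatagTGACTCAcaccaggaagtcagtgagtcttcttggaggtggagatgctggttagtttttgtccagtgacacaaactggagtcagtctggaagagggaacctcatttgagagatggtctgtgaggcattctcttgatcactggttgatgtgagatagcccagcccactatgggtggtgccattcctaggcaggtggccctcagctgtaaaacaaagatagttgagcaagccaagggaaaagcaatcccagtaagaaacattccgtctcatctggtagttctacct
1700030C10Rik (chr12:20815730-20816029, minus strand): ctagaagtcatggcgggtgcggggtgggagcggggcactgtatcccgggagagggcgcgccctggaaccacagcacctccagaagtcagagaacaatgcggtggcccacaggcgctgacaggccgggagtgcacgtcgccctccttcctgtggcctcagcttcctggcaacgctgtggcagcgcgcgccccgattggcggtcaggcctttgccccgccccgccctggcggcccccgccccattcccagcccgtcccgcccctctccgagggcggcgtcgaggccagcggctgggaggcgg
1700025O08Rik (chr4:22938386-22938685, minus strand): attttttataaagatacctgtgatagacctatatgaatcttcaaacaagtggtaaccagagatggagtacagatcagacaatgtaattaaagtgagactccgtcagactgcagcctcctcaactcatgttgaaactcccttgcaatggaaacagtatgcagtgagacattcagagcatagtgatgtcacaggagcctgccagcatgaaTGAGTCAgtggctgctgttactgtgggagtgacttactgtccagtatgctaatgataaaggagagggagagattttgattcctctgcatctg

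AP-1 motifs stood in 22.2% of the 189 lncRNA windows that held a member's centre, against 7.81% of all 32851 promoter windows of the table and 9.31% of its lncRNA windows. On both strands, 5 other motifs were searched, chosen with earlier results known. TGTTTAC (FOXA) stood in 8.99% of the member windows against 3.65% of all, CACGTG (E-box) in 11.1% against 7.15%, and TTGCNNCAA (C/EBP) in 3.17% against 2.08%. The HNF1 motif stood in 1 of the 189 member windows and 20 of all 32851, and the AhR response element TNGCGTG in 3.70% against 5.07%. Over lncRNA windows alone, the closer comparison, the shares were 4.83% for FOXA, 5.89% for the E-box and 2.61% for C/EBP. They were 0.0604% for HNF1 and 3.38% for the AhR response element, the latter near its share in member windows. The AP-1 motif was present in 3 of 9 windows of members that fell, 3 of 6 of members that rose and 36 of 174 of members not called. These are counts of windows. The 6 windows belong to 4 members that rose, so a site can be counted more than once. Member windows were chosen as open in all 12 libraries, and the windows compared with them were not. The part of this in the shares was not tested. A match is a description of the letters and not a binding site.

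Members within 2 kb of a microRNA hairpin numbered 17, at 15 microRNA genes. Of these, 5 mature sequences are shown for genes of known interest, chosen after the values were seen, with the seed (bases 2 to 8) in capitals.
mmu-miR-29a-3p: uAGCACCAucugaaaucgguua
mmu-miR-29b-3p: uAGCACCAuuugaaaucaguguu
mmu-miR-30a-5p: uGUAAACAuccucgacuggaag
mmu-miR-802-5p: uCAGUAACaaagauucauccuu
mmu-miR-137-3p: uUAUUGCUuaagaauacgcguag
The first 2 share their seed, and both hairpins neighbour 1 member in the interval between Klf14 and Mkln1. That member held 67.1 ± 4.03 scaled tags in B2_minus and 69.4 ± 6.28 in control (mean ± SD, n = 6 libraries each). The member beside Mir802, a microRNA studied in liver metabolism, held 26.0 ± 3.96 in B2_minus and 24.7 ± 3.68 in control. Neither passed (edgeR adjusted p 0.736 and 0.839), and of the 17 members 1 was called, a rise beside Mir6372 (log2 fold change 0.34, SE 0.102; edgeR adjusted p 0.0255), where 5.78% of all regions and 9.22% of all members were called.

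Values are scaled tags, meaning a library's highest peak count in a region divided by its TMM-normalised library size, on a scale where the 12 libraries average 1. Tests used edgeR's quasi-likelihood test over all 101575 regions adjusted by Benjamini and Hochberg, and 0.05 was the limit for a call. The lists held 200698 to 281141 peaks and 3897632 to 5557678 tags per library, and the sequencing depth is unknown. A site below the lowest listed count of 6 to 8 tags is absent from a list, so a weak member cannot show a value below it. Tags per listed peak ran from 18.3 to 23.0 in B2_minus and from 17.1 to 19.8 in control, and 70.7% to 73.8% of listed tags lay in tested regions in B2_minus against 64.5% to 73.2% in control. The ranges overlapped between diets, and the part of these values in the results was not tested. All 12 of the 12 hepatocyte marker genes had a tested region at a gene end, against 4 of 12 endothelial, 3 stellate, 2 Kupffer and 8 cholangiocyte markers. The summed signal at those ends ran from 682 to 716 scaled tags in B2_minus and from 648 to 714 in control for hepatocyte markers.

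Members were of moderate strength, with a median of 20.6 scaled tags, against 43.2 at gene ends, 20.7 inside genes and 22.0 at 1 to 50 kb from genes. The median distance to a protein-coding gene was 115.8 kb, with 57.6 kb and 357 kb at the 10th and 90th percentiles, and 2266.1 kb at the most. Far intergenic regions were less often shared by all libraries: 11.7% of the 86931 found in any list were found in all 12, against 16.4% of other regions. Members took 8.44% to 8.56% of the tags in tested regions in B2_minus libraries and 8.52% to 8.67% in control libraries, ranges that overlap. Their centres lay in 1660 intervals free of protein-coding genes, called gene-free below, 380 of which held 1 member and 95 of which held 20 or more. Other genes can lie in them: 2586 members (25.5%) were centred inside the body of a noncoding gene. Just inside the distance limit lay regions 50021 bp from C1qtnf3 (20.7 scaled tags) and 50025 bp from Stac (16.7), and just outside it regions 49997 bp from Akr1c6 (9.09) and 49993 bp from Mn1 (28.6). The member farthest from a gene, nearest Pcdh20, held 24.9 ± 1.48 scaled tags in B2_minus and 22.2 ± 5.26 in control. Next in distance came a pair of members between Olfm4 and Pcdh17, at 10.1 ± 2.63 and 16.7 ± 3.27 in B2_minus against 16.1 ± 3.50 and 24.0 ± 1.78 in control.

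In B2_minus hepatocytes, averaged over both Ad arms, accessibility fell at members nearest Myc, Tnfaip3, Igfbp3, Ccnd1, Sox4, Klf5, Runx1 and Jag1, and rose at members nearest Crp, Igf1, Dusp10, Zfpm2 and Pou3f3. In all, 298 members rose and 637 fell, so 9.22% were called, against 5.78% of all 101575 regions, of which 2.45% rose and 3.33% fell. The median log2 fold change was 0.44 among members that rose and -0.58 among those that fell, and -0.01 over all members against 0.00 over all regions.

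Which direction prevailed depended on the processing. With library size from listed tags, 992 members rose and 385 fell, and the median over all regions moved to 0.10 on the log2 scale. With regions found in at least 3 lists, 357 rose and 174 fell. The number of calls depended on the test: DESeq2 called 13 members, all falls, and edgeR with the variance bounded at Poisson called 45 rises and 166 falls. Directions below are relative to the typical region.

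The 13 falls that DESeq2 called were all among the 637. They lay nearest Myc, Tnfaip3, Igfbp3, Ccnd1, Sox4, Klf5 and Runx1, at a pair of sites nearest Jag1, and nearest Iftap, Adamts9, Cpne8 and Ano6, the last 4 named after their values were seen. The other 9 passed the threshold in every alternative that gave them a value.

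The largest fall lay 129 kb beyond Myc, a growth-promoting transcription factor, in the interval that also holds the lncRNA gene Pvt1. This member (chr15:62118230-62119372) held 9.86, 18.1 and 14.7 scaled tags in B2_minus with Ad_Cont, against 37.6, 32.9 and 42.1 in control with Ad_Cont. With Ad_Cre it held 12.5, 14.4 and 12.7 in B2_minus, against 34.2, 26.8 and 31.5 in control. All 6 B2_minus libraries lay below all 6 control libraries (log2 fold change -1.31, SE 0.148; edgeR adjusted p 6.44e-11).

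Tnfaip3 encodes an inhibitor of NF-kB signalling, and a member 147 kb from it fell by 1.26 on the log2 scale (chr10:19162089-19162425, SE 0.172; edgeR adjusted p 8.35e-08). It held 9.86, 9.59 and 10.5 scaled tags in B2_minus with Ad_Cont against 25.4, 20.9 and 25.9 in control, and 10.4, 8.62 and 9.97 in B2_minus with Ad_Cre against 26.5, 19.9 and 24.5 in control. The groups did not overlap, and the B2_minus values lie near the lowest listed counts. Between Igfbp3, a carrier of insulin-like growth factors, and Tns3, a member 580 kb from Igfbp3 averaged 12.6 ± 2.81 scaled tags in B2_minus and 26.7 ± 3.85 in control (chr11:7795673-7796021; log2 fold change -1.09). Near Ccnd1, the cyclin that drives entry into the cell cycle, a member 85.8 kb away averaged 11.8 ± 1.74 in B2_minus and 24.9 ± 3.58 in control (chr7:145024630-145025868; log2 fold change -1.08). Both groups were apart at these 2 members as well.

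**Figure D1:**
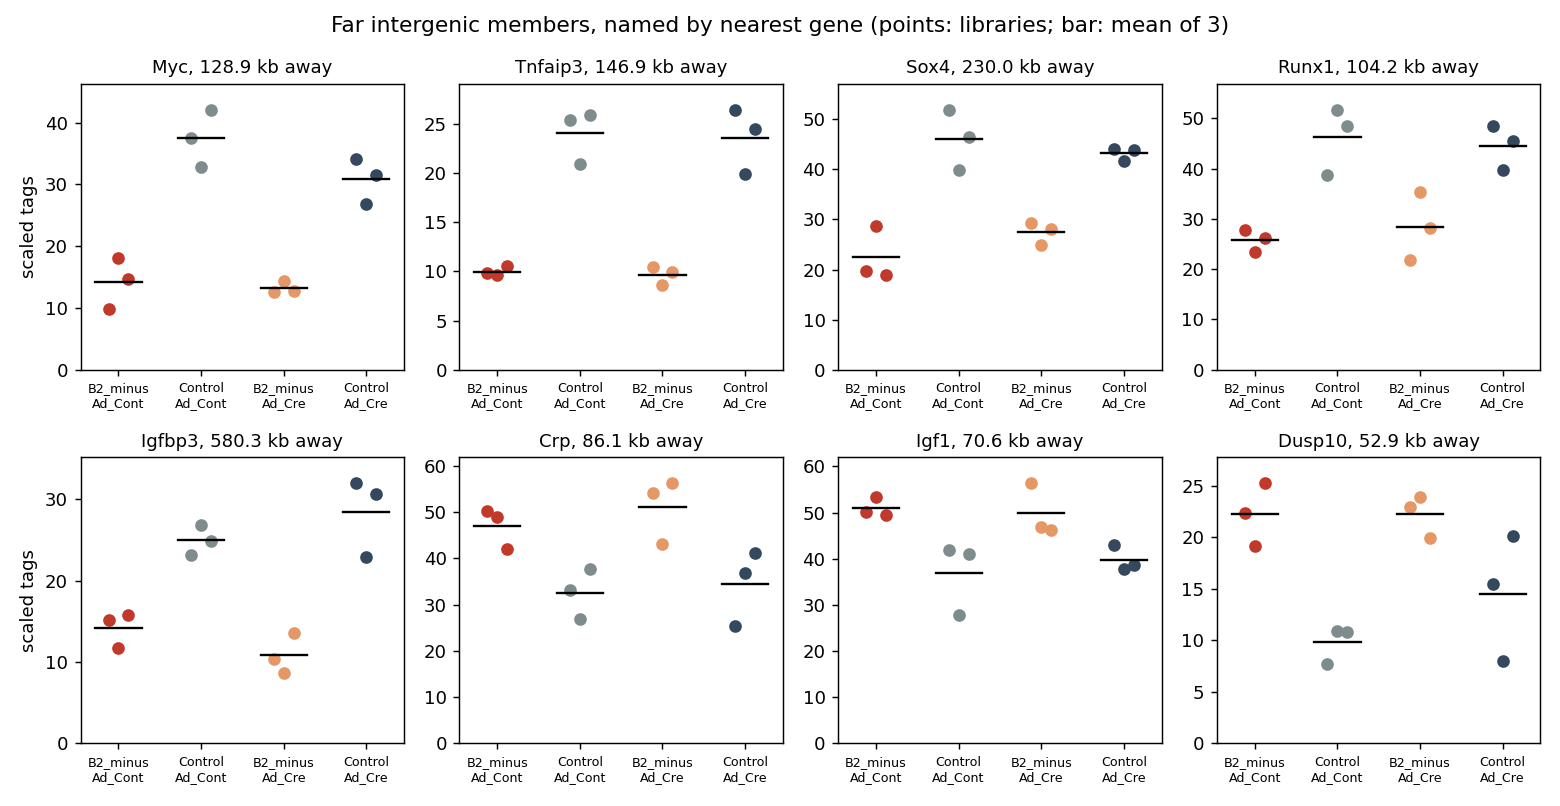
Scaled tags (y axis, from 0) of 8 far intergenic members in the 12 libraries, each panel titled by the nearest gene and its distance; points are libraries and bars the mean of 3. In the panels of Myc, Tnfaip3, Sox4, Runx1 and Igfbp3 every B2_minus library lies below every control library, in those of Crp and Igf1 above, and in that of Dusp10 the groups overlap.

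Several of the named falls were nearest to genes of transcription factors; over the whole list of developmental transcription factors 6.64% of 497 members fell and 3.22% rose, close to the 6.28% and 2.94% of all members. A member 230 kb from Sox4, a factor of progenitor cells (chr13:28718690-28719087), held 19.7, 28.8 and 18.9 scaled tags in B2_minus with Ad_Cont against 51.9, 39.8 and 46.4 in control. With Ad_Cre it held 29.2, 24.9 and 28.1 in B2_minus against 44.1, 41.8 and 43.8 in control (log2 fold change -0.85, SE 0.112; edgeR adjusted p 5.25e-08). Members 223 kb from Klf5 (chr14:99535811-99536074) and 104 kb from Runx1 (chr16:92930156-92930453) averaged 17.9 ± 3.88 and 27.2 ± 4.73 scaled tags in B2_minus, against 33.4 ± 4.06 and 45.5 ± 5.24 in control. At these 3 members the 6 B2_minus libraries lay below the 6 control libraries. Foxa2 and Nfib, factors active in hepatocytes, each had a member that fell, 138 kb and 124 kb away, by 0.62 and 0.74.

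Other large falls lay nearest Cdc5l (-1.14), Clvs1 (-1.07), Atp13a3 (-1.04), Palmd (-0.99), Cdh20 (-0.99) and Hmcn1 (-0.98). Their B2_minus means lay between 8.50 and 14.0 scaled tags and their control means between 18.6 and 27.7.

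Among the rises, a member 86.1 kb from Crp, an acute-phase plasma protein gene (chr1:172785961-172786228), held 50.2, 49.0 and 42.1 scaled tags in B2_minus with Ad_Cont against 33.2, 26.9 and 37.8 in control. With Ad_Cre it held 54.2, 43.1 and 56.2 in B2_minus against 25.4, 36.8 and 41.2 in control (log2 fold change 0.54, SE 0.101; edgeR adjusted p 0.000103). All B2_minus libraries were above all control libraries. A member 70.6 kb from Igf1, the gene of a liver-secreted growth factor, averaged 50.4 ± 3.84 in B2_minus and 38.4 ± 5.52 in control, again without overlap (log2 fold change 0.40; edgeR adjusted p 0.00328). The Igf1 call did not pass with bounded edgeR, limma without an intensity trend or sums of peaks.

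The largest rises were at weaker members. They lay nearest Pou3f3 (0.91), Dusp10 (0.88), 2310057J18Rik (0.87), Zfpm2 (0.84), Flrt2 (0.84), Pik3r1 (0.83), Pcdh10 (0.81), Hs6st1 (0.80), Ino80d (0.79) and Bcl11a (0.75). Dusp10 encodes a phosphatase that restrains stress-activated kinases; its member, 52.9 kb away, held 22.4, 19.2 and 25.2 scaled tags in B2_minus with Ad_Cont against 7.74, 11.0 and 10.8 in control. With Ad_Cre it held 22.9, 23.9 and 19.9 in B2_minus against 15.4, 7.95 and 20.2 in control, where the groups overlapped. Of these 10, the members of 2310057J18Rik, Zfpm2, Flrt2 and Bcl11a had no overlap between the 6 and 6 libraries. DESeq2 called none of the rises (13 members called, 908 at an unadjusted p under 0.05).

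Over all members, 107 (1.06%) had every B2_minus library above every control library, and 256 (2.52%) had every one below. The same held for 0.898% and 1.33% of all tested regions.

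The lncRNA starts printed above followed both directions. At the start of Morrbid, a lncRNA known for controlling the lifespan of myeloid cells through its neighbour Bcl2l11, the member (chr2:128429250-128429511) held 40.3, 46.9 and 41.0 scaled tags in B2_minus with Ad_Cont against 65.2, 59.7 and 62.6 in control. With Ad_Cre it held 52.2, 38.3 and 38.1 in B2_minus against 70.6, 65.6 and 57.0 in control, again with no overlap (log2 fold change -0.57, SE 0.0840; edgeR adjusted p 1.05e-06). The start of 1700030C10Rik averaged 70.6 ± 4.07 in B2_minus and 51.0 ± 8.67 in control (log2 fold change 0.47; edgeR adjusted p 8.89e-06). That of 1700025O08Rik, shared with Gm30886, averaged 40.7 ± 3.13 in B2_minus and 30.0 ± 4.58 in control (log2 fold change 0.43). At both the groups did not overlap. The members at Gm13816 and Gm39368 fell by 0.45 and 0.74. In all, 4 of the 173 rose and 9 fell (7.51%), beside 9.22% of all members, and their median signal was 30.2 scaled tags against 20.5 for other members.

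Of 194 gene-free intervals with at least 2 called members, 96 held falls alone, 34 rises alone and 64 both. The interval from Myc to Gsdmc held 86 members, of which 5 rose and 6 fell. The 4 falls nearest Myc lay from 129 to 149 kb beyond the gene and its rises from 266 to 665 kb, with log2 fold changes of 0.24 to 0.59. On the other side of Myc, toward A1bg, 6 of 15 members fell and 0 rose. These calls differed in how well they held among the alternatives that gave a value. Those from Myc to Gsdmc passed in 7 of 19 at the least and 23 of 23 at the most. Those toward A1bg passed in 6 of 21 at the least and 20 of 21 at the most.

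Between Jag1, which encodes a Notch ligand, and Btbd3, 8 of 17 members fell and 1 rose, the most falls in 1 interval. It and the intervals beside Sox4 and toward A1bg were singled out after their values were seen. A member 292 kb from Jag1 (chr2:137408417-137408751) held 26.0, 25.6 and 22.1 scaled tags in B2_minus with Ad_Cont against 51.9, 49.8 and 43.2 in control, and 30.2, 24.9 and 21.8 in B2_minus with Ad_Cre against 40.8, 42.8 and 43.8 in control. The groups did not overlap (log2 fold change -0.85, SE 0.110; edgeR adjusted p 1.76e-08). Close by, 297 kb from Jag1, another (chr2:137413463-137413839) averaged 38.1 ± 4.99 in B2_minus and 60.1 ± 5.94 in control (-0.65). In the interval from Prl5a1 to Sox4, 7 of 46 members fell and 0 rose. With library size from listed tags, 4 of the 8 falls between Jag1 and Btbd3 no longer passed, and the pair given here still did.

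**Figure D2:**
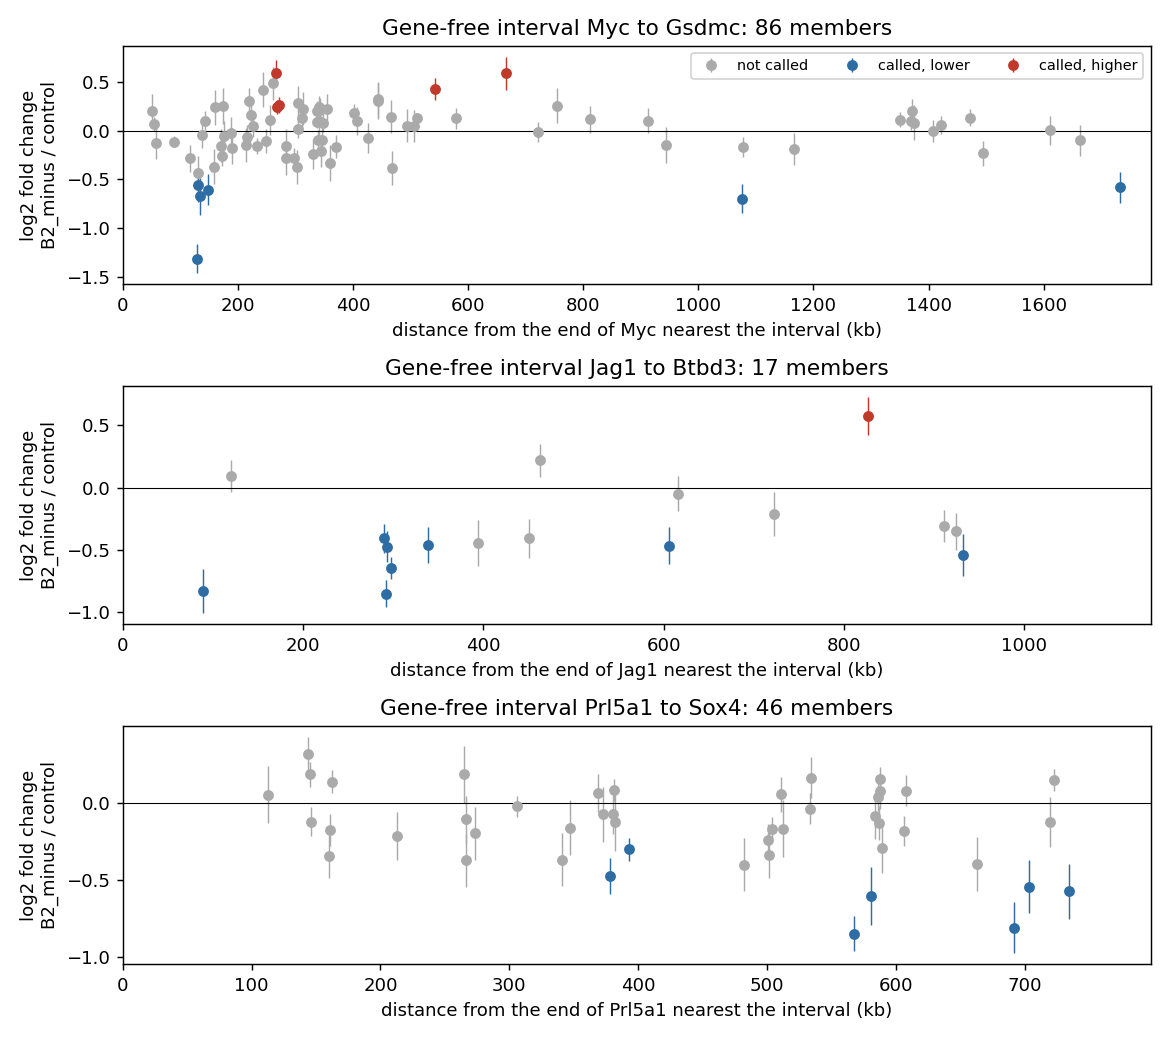
Log2 fold change of B2_minus over control, averaged over both Ad arms (y axis; bars are SE), of every member of 3 gene-free intervals, by distance in kb from the gene on the left. In the interval from Myc to Gsdmc 4 of 6 falls lie at 129 to 149 kb and the rises from 266 to 665 kb; from Jag1 to Btbd3 8 of 17 members fell, and from Prl5a1 to Sox4 7 of 46.

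Intervals with the most members were Klf14 to Mkln1 (97 members, 0 rose and 2 fell), Myc to Gsdmc, Nmbr to Cited2 (62; 5 and 1), Irf2bp2 to Tomm20 (50; 1 and 2) and Plpp3 to Usp24 (50; 0 and 6). Rises gathered in the intervals Zfpm2 to Oxr1 (5 of 8), Egln3 to Sptssa (5 of 28) and Inhba to Sugct (5 of 38), named after their values were seen.

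The strongest members stood apart. Those with the highest signal lay between Esp15 and Esp38, an interval that holds ribosomal RNA copies annotated as Rn18s-rs5 and AY036118. There the strongest averaged 317 ± 22.5 scaled tags in B2_minus and 347 ± 22.7 in control (log2 fold change -0.13, edgeR adjusted p 0.00167), and the groups overlapped. The 43 members with 100 or more scaled tags, or in this interval or in Gm41099 to Gm2244 or Lrrc4c to Iftap, are called repeat-like here. They were set aside after their values were seen. These 3 intervals are among those with the most falls, so the 0 rises and 22 falls among the 43 follow from the choice. Without the 43, 298 members rose and 615 fell.

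By strength, 0.451% of members under 15 scaled tags rose and 6.32% fell, against 0.596% and 3.60% of other regions of that strength. From 15 to 20 tags 2.57% rose and 6.71% fell, against 1.52% and 3.79%, and from 20 to 30 tags 3.36% rose and 7.44% fell, against 2.51% and 3.19%. From 30 to 50 tags 4.75% rose and 5.84% fell, against 4.22% and 2.97%, and from 50 to 100 tags 6.43% rose and 2.67% fell, against 3.57% and 1.26%. Of the 27 members with 100 or more tags 0 rose and 10 fell (37.0%), 7 of these 10 between Esp15 and Esp38, against 0.673% and 2.47% of other regions. By distance, 2.62% rose and 5.70% fell at 50 to 100 kb, 3.14% and 6.49% at 100 to 200 kb, and 3.36% and 5.98% at 200 to 500 kb. Beyond 500 kb 2.65% of 528 members rose and 11.0% fell, and these 528 lay in 142 intervals. Of the classes, 9.22% of far intergenic members were called, against 3.20% of regions at gene ends, 5.61% of those inside genes and 6.80% at 1 to 50 kb from genes. These shares are descriptions, since regions are not replicates.

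**Figure D3:**
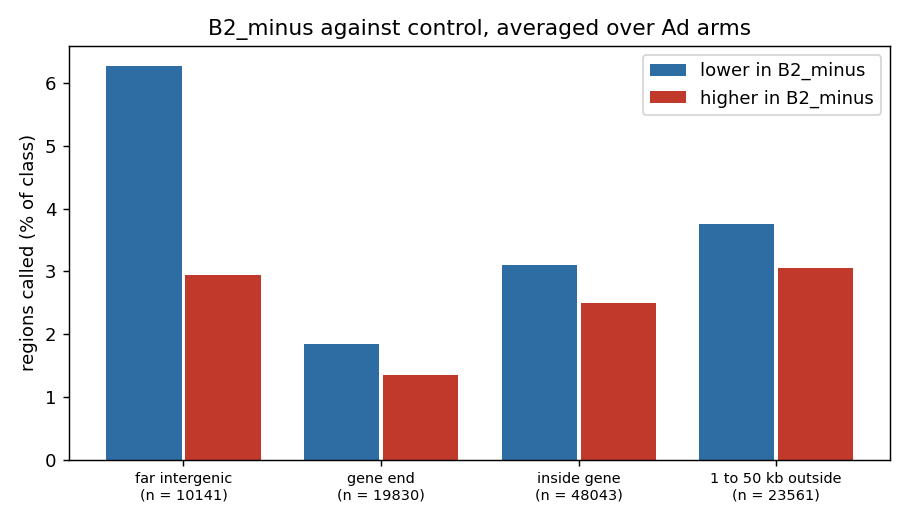
Share of regions called lower or higher in B2_minus than in control (y axis, percent of the class, from 0) for far intergenic regions and 3 classes nearer to genes. Falls reach 6.28% and rises 2.94% of far intergenic members, against 1.85% and 1.35% at gene ends, on the TMM scale.

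By gene list, counts lay on both sides of the shares over all members (2.94% rose, 6.28% fell). Of 138 members nearest 18 genes of YAP, actin and dedifferentiation, 5 rose and 15 fell (10.9%). Several of these falls lay nearest Sox4, in the interval toward Prl5a1 that was singled out after its values were seen. Others lay near Ankrd1 (-0.89) and Ccn2 (-0.73), a pair of classic YAP targets, while Fn1 had a member that rose by 0.54. Of 203 members nearest 18 inflammation and immediate early genes, 11 rose and 18 fell. Members nearest Myc made up 5 of those rises and 8 of those falls; falls also lay near Tnfaip3 and Errfi1 (-0.57) and a rise near Ier5 (0.52). Developmental transcription factors had 16 rises and 33 falls of 497, with Maf (-0.62) beside those named above, and hepatocyte transcription factors 7 and 10 of 190, with a rise near Tbx3 (0.74) and a fall near Id2 (-0.62).

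Neuronal and cell adhesion genes that border gene deserts had 12 rises and 22 falls of 252, with falls near Cdh20, Grm7 (-0.92), Robo1 (-0.78) and Csmd1 (-0.62). Lipid, bile acid and xenobiotic genes had 1 rise and 3 falls of 49, the falls near Ppargc1a (-0.58), a coactivator of mitochondrial genes, Cyp1b1 (-0.70) and Lpin1 (-0.52). Plasma protein genes had 2 rises, Crp and Igf1, and 1 fall of 23. AhR signalling and targets had 2 rises and 1 fall of 19, with rises near Nfe2l2 (0.44) and Ahr and a fall near Cyp1b1. Clock genes had 1 fall of 9, near Rorb (-0.66). Among the alternatives that gave a value, the calls near Nfe2l2 and Lpin1 each passed in 11 of 23.

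The member 79.8 kb from Ahr (chr12:35418048-35418382) held 60.9, 59.7 and 55.8 scaled tags in B2_minus with Ad_Cont against 48.6, 46.8 and 57.2 in control, and 72.0, 62.3 and 58.0 in B2_minus with Ad_Cre against 44.1, 49.7 and 52.6 in control. With Ad_Cont the lowest B2_minus library lay below the highest control library, and with Ad_Cre the groups did not overlap (averaged log2 fold change 0.29, SE 0.0800; edgeR adjusted p 0.0128). This call did not pass with DESeq2, bounded edgeR, limma without an intensity trend or sums of peaks, nor without the first B2_minus Ad_Cre library. Cyp1b1 encodes an enzyme of hormone and xenobiotic oxidation whose gene AhR is known to induce; the member 53.2 kb from it held 8.04 ± 1.49 in B2_minus and 13.2 ± 3.41 in control, and the groups overlapped.

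Members nearest markers of other liver cells were few in number. Falls made up 15.4% of those of cholangiocyte markers and 13.3% of those of endothelial markers, beside 6.28% of all members. Rises made up 0.0% and 6.67% of them, beside 2.94% of all members. Cholangiocyte markers had 0 rises and 4 falls of 26, near Sox9 (-0.44), Pkhd1 (-0.51; passed in 12 of 23 alternatives) and Epcam (-0.56; passed in 6 of 19), endothelial markers 1 rise and 2 falls of 15, stellate markers 1 rise of 5, near Dcn (0.65), and Kupffer and hepatocyte markers 0 calls of 5 and of 23. At the tested ends of those genes, summed scaled tags ran from 602 to 644 in B2_minus and from 603 to 647 in control for cholangiocyte markers, from 121 to 134 and from 114 to 137 for endothelial, from 59.8 to 73.6 and from 66.3 to 94.6 for stellate, and from 173 to 191 and from 155 to 178 for Kupffer markers. Of the 12 markers, 8 endothelial, 9 stellate, 10 Kupffer and 4 cholangiocyte genes had no tested region at an end. Their part in the results was not tested, and fewer cells of a type cannot be told apart from less open chromatin per cell. Median log2 fold changes lay between -0.18 for endothelial markers and 0.16 for stellate markers, beside -0.01 over all members. With library size from listed tags, rises outnumbered falls in the YAP list (15 and 7), in inflammation (25 and 13), in developmental factors (42 and 21), in neuronal genes (28 and 15), in hepatocyte transcription factors (22 and 5), in lipid, bile acid and xenobiotic genes (6 and 2) and in plasma protein genes (7 and 0), while cholangiocyte markers had 0 and 1 and endothelial markers 1 and 0.

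**Figure D4:**
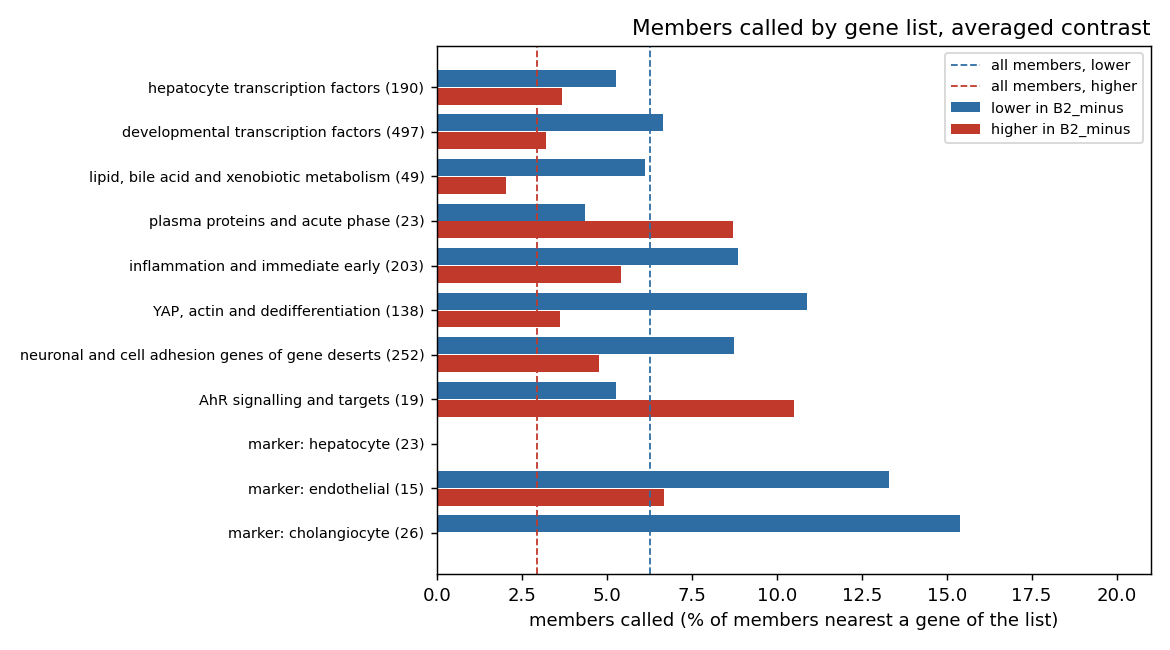
Share of members called lower or higher in B2_minus (x axis, percent of the members nearest a gene of the list, with their number in brackets), TMM scale; dashed lines mark the shares over all members, 6.28% lower and 2.94% higher. Lists with fewer than 15 members are not drawn. The highest shares of falls are 15.4% for cholangiocyte markers, 13.3% for endothelial markers and 10.9% for YAP, actin and dedifferentiation genes. Several falls of the YAP list lie nearest Sox4, and with library size from listed tags that list had more rises than falls.

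With Ad_Cont alone, 53 members rose and 138 fell (1.88% called, against 1.04% of all regions, of which 0.423% rose and 0.618% fell). With Ad_Cre 48 rose and 150 fell (1.95%, against 1.13% of all regions, of which 0.354% rose and 0.774% fell). On the listed-tags scale rises were the more numerous in both arms, 82 against 71 falls with Ad_Cont and 408 against 97 falls with Ad_Cre. Fewer members were called in an arm when any 1 of its libraries was left out, which also makes a group smaller. The weight of a single library cannot be told apart from that. Without B2_minus replicates 1, 2 or 3 with Ad_Cont 49, 107 or 87 members were called there, and without control replicates 1, 2 or 3 87, 99 or 69. With Ad_Cre the counts were 71, 87 or 64 without B2_minus replicates 1, 2 or 3, and 99, 103 or 90 without control replicates 1, 2 or 3. In both arms 41 were called, 21.5% of the members called with Ad_Cont and 20.7% of those called with Ad_Cre; 5 rose and 36 fell, and 41 had the same sign. Of the 935 averaged calls, 932 had the same sign in each arm. The arms share no library, and their log2 fold changes correlated over the 10141 members (Pearson 0.493, Spearman 0.456; over all regions 0.401 and 0.356); members share libraries, so these are descriptions.

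Leading falls with Ad_Cont were Myc (-1.41), Tnfaip3 (-1.25), Hmcn1 (-1.21), Adcy1 (-1.20) and Cog6 (-1.12), and with Ad_Cre Intu (-1.40), Igfbp3 (-1.37), Gm11780 (-1.28), Tnfaip3 (-1.28) and Cdc5l (-1.27). Leading rises with Ad_Cont included Dusp10 (1.17), Zfpm2 (1.14), Phlda1 (1.06) and Tbx3 (0.98), and with Ad_Cre Pou3f3 (1.17), Frmd6 (0.99) and a pair of Pik3r1 members (0.93 each). The interaction of B2_minus with Ad_Cre called 0 members (0.0% of all regions; 517 at an unadjusted p under 0.05), and its lowest adjusted p was 0.578. DESeq2, bounded edgeR and limma also called 0 for it, so no member was shown to differ between the arms. Calls in an arm were few with other tests. DESeq2 called 0 with Ad_Cont (402 members at an unadjusted p under 0.05) and 0 with Ad_Cre (384), bounded edgeR 4 and 2, and limma without an intensity trend 6 and 5.

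**Figure D5:**
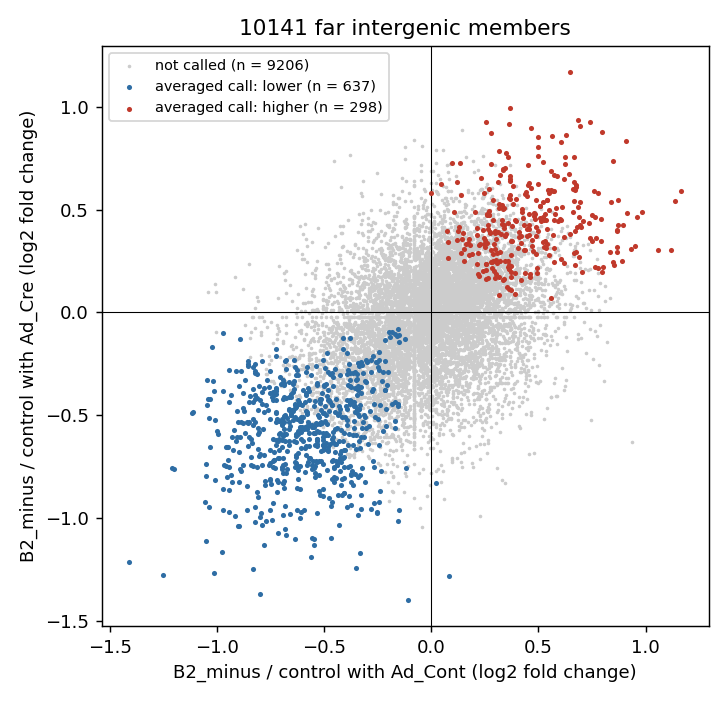
Log2 fold change of B2_minus over control with Ad_Cont (x axis) and with Ad_Cre (y axis) for the 10141 members; blue and red points are the 637 and 298 averaged calls. Of these 935, 932 lie in the lower left or upper right quadrant.

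Ad_Cre changed few members. Averaged over diets, 8 rose and 8 fell (0.158% of members, against 0.0955% of all regions, of which 0.0482% rose and 0.0473% fell). With library size from listed tags 6 rose and 50 fell. A member 162 kb from Tgfb2, a growth factor gene (chr1:186460844-186461127), held 39.6, 28.7 and 36.3 scaled tags in Ad_Cre with B2_minus against 19.7, 20.3 and 15.8 in Ad_Cont with B2_minus, and 35.3, 28.8 and 36.8 in Ad_Cre control against 22.1, 16.9 and 27.0 in Ad_Cont control. Every Ad_Cre library was above every Ad_Cont library (log2 fold change 0.76, SE 0.133; edgeR adjusted p 0.00272).

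Acvr2a encodes an activin receptor, and a member 339 kb from it fell by 0.98 (chr2:48475147-48475734; edgeR adjusted p 0.00590). It held 11.5, 9.58 and 8.16 scaled tags in Ad_Cre with B2_minus against 17.9, 19.2 and 16.8 in Ad_Cont with B2_minus, and 11.0, 6.96 and 7.01 in Ad_Cre control against 19.9, 13.9 and 18.4 in Ad_Cont control, again apart. In the interval between Snx13 and Ahr, the floxed gene, a member 136 kb from Snx13 fell by 0.71 (SE 0.144; edgeR adjusted p 0.0108; chr12:35283280-35283721), with 18.8, 22.0 and 18.1 scaled tags in Ad_Cre with B2_minus against 32.3, 26.7 and 29.5 in Ad_Cont with B2_minus, and 15.4, 12.9 and 18.4 in Ad_Cre control against 32.0, 24.9 and 28.1 in Ad_Cont control. The Snx13 fall did not pass without the first B2_minus Ad_Cont library (edgeR adjusted p 0.0568). The other leading members were Gm33989, Rab4a, Dyrk2 and Pkdcc upward (0.76 to 0.66) and 3110040M04Rik, Btg1 and Mterf1b downward (-0.67 to -0.58).

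Inside the Ahr gene 6 regions were tested and 0 were called for Ad_Cre, with log2 fold changes from -0.30 to 0.04; without the position of the deletion they check nothing. In control alone Ad_Cre called 1 member, a fall near Btg1 (-0.79; 0.00591% of all regions called, 0.00394% as falls), and in B2_minus 0 (0.00197% of all regions, 0.000984% in each direction; 796 members at an unadjusted p under 0.05). DESeq2, bounded edgeR and limma without an intensity trend called 0 members in any Ad_Cre against Ad_Cont comparison (187, 482 and 1148 at an unadjusted p under 0.05 in the averaged one). The averaged count lay between 5, without the first B2_minus Ad_Cont library, and 21, without the first Ad_Cre control library. It was at most 10 without any single Ad_Cre library of B2_minus, without Ad_Cre control replicates 2 or 3, or without Ad_Cont control replicates 1 or 2.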

How the data were processed

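ATAC-seq peak lists of 12 mouse hepatocyte libraries, 3 in each of 4 groups, were used, and the 8 HepG2 lists of the series were not. The authors deposited for each library 200 bp peaks on mm10 with a whole-number tag count per peak, used as raw counts. Bowtie2 and HOMER are named per the submitters' processing notes, without versions; no source used here gives read filters, shifting or depth, and peaks were listed per library.

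The highest peak count of a library in a merged region was its value. Regions with a peak in all 12 lists were scaled by TMM and tested with edgeR 4.0.16's quasi-likelihood test (legacy = FALSE) in R 4.3.3, in a 4-group model with 7 contrasts and Benjamini-Hochberg adjustment. Requiring a listed peak everywhere removes regions that vanish in a group. Gene bodies and sequences are RefSeq GRCm38.p6. Alternatives used DESeq2 1.42.0, limma 3.58.1 with a pseudocount of 1, other scalings, filters and distances, and each library left out.

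Members and gene lists were chosen with earlier results of these data known, as was the edgeR form without a Poisson bound. Named regions were the 10 highest and 10 lowest averaged fold changes with the same sign in both arms, the 5 highest and lowest per arm and Ad_Cre contrast, the strongest, the farthest, up to 4 per gene list by smallest adjusted p, and the intervals with most members. The intervals with most calls, motifs, microRNAs printed and the plotted members were chosen after values were seen. The limma fit without an intensity trend was the planned one, and the fit with the trend was added after its counts were seen. Simulated data with 200 regions changed 2-fold gave 99% recovery and 9 false calls over 101575 regions for the averaged contrast. The simulated counts had a variance below Poisson and no spread between libraries beyond their size, and the weakest regions were left unchanged. That setting suits the edgeR form used, so it does not measure false calls in the real libraries. No pair of libraries held identical values over 66 pairs. Libraries with the same replicate number did not vary together: 0 of 18 same-number pairs had a correlation of deviations over 0.1. With counts this low a shared animal or culture may not show, so pairing is not excluded.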

Additional observations from a re-analysis of the deposited data

How the results depend on the processing

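Calls were sensitive to the test, the scaling and the regions tested; the main counts were 191 members with Ad_Cont, 198 with Ad_Cre and 935 averaged, and for Ad_Cre against Ad_Cont 1 in control and 16 averaged. With edgeR's variance bounded at Poisson these counts were 4, 2, 211, 0 and 0, with DESeq2 0, 0, 13, 0 and 0, and with the planned limma fit 6, 5, 452, 0 and 0. The limma fit with an intensity trend, added after those counts were seen, gave 187, 148, 874, 1 and 10. Library size from listed tags gave 505 with Ad_Cre, 1377 averaged, 5 and 56, and turned the B2_minus splits toward rises (992 rises and 385 falls averaged). Peaks in at least 3 lists gave 1, 2, 531, 0 and 0, and sums of peaks 6, 2, 249, 0 and 0. A mean count of at least 20 gave 571 averaged and 1 for Ad_Cre in B2_minus, where the main count was 0. Over 100 kb from genes the counts were 126, 121, 576 and, for Ad_Cre averaged, 8; an overlap of 100 bp gave 3 for Ad_Cre in control. Leaving out 1 library gave 49 to 196 with Ad_Cont (lowest without B2_minus Ad_Cont replicate 1), 64 to 204 with Ad_Cre (lowest without B2_minus Ad_Cre replicate 3), 663 to 820 averaged, 0 to 1 and 0 to 2 for Ad_Cre in control and in B2_minus, and 5 to 21 for Ad_Cre averaged. The interaction had 0 calls throughout. No pairing by replicate number was seen, and with the replicate block 934 members were called, 916 of them among the 935. The cause of these differences was not tested.

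Of the 935 averaged calls, the bounded fit shared 211, the planned limma fit 423, library size from listed tags 683 and peaks in at least 3 lists 318. Named members that passed numbered 129 results; over the alternatives 2117 values stayed past the threshold with the same sign, 711 did not pass and 0 reversed.

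Members numbered 5294 with a mean count of at least 20, 25304 with peaks in at least 3 lists and 5827 over 100 kb from genes. The share called (9.22% of members, 3.20% at gene ends, 5.61% inside genes) was 2.08%, 0.303% and 0.951% with the bounded fit, 0.128%, 0.0202% and 0.0437% with DESeq2, and 4.46%, 1.02% and 2.63% with the planned limma fit. It was 8.62%, 2.91% and 5.16% with the trend, 13.6%, 10.3% and 11.2% with listed tags, 2.10%, 1.75% and 1.42% with at least 3 lists, and 2.46%, 0.696% and 1.42% with sums. A mean count of at least 20 gave 10.8% of members and 6.60% inside genes, an overlap of 100 bp 9.88% and 6.11%, and over 100 kb 9.89% of members. Leaving out 1 library gave 6.54% to 8.09%, 2.20% to 2.86% and 4.02% to 4.80%.

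Median scaled tags of members, in the order B2_minus and control with Ad_Cont, then B2_minus and control with Ad_Cre, were 32.6, 33.0, 32.3 and 32.8 with a mean count of at least 20, and 9.40, 9.42, 9.35 and 9.78 with at least 3 lists. They were 21.3, 21.9, 21.9 and 22.2 with sums, 26.4, 27.3, 26.3 and 27.0 with peaks of at least 10 tags, and 21.2, 21.9, 21.9 and 22.0 with an overlap of 100 bp. With listed tags B2_minus had 21.1 with Ad_Cont and 21.2 with Ad_Cre, and control with Ad_Cre 19.6; over 100 kb B2_minus with Ad_Cre had 19.96. The share of listed tags in members, in the same order, was 4.63%, 4.43%, 4.53% and 4.08% with a mean count of at least 20, and 7.92%, 7.72%, 7.82% and 7.45% with at least 3 lists. It was 5.37%, 5.16%, 5.25% and 4.77% with at least 10 tags, 5.73%, 5.54%, 5.61% and 5.16% with an overlap of 100 bp, and 3.49%, 3.39%, 3.40% and 3.14% over 100 kb. Sums gave 6.44% in B2_minus with Ad_Cont, 6.32% in B2_minus with Ad_Cre and 5.82% in control with Ad_Cre, and without the 43 repeat-like members 6.07% in B2_minus with Ad_Cont and 5.47% in control with Ad_Cre.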
